A study of Mus musculus with 4 samples.

Results

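The 500 microRNA genes described here were those named as the nearest gene of at least 1 TLE3-bound region lying within 50 kb of their annotated start. They were taken by symbol, Mir followed by a number or Mirlet7, from the joined region lists of 3 cultured mouse fat depots, and they held 1329 regions on 20 chromosomes. The same distance rule gave 13381 genes of every kind and 39602 regions, out of 69599 regions in all. A microRNA gene was counted only where no other annotated start lay nearer to a region. The 5 long host transcripts with names ending in hg, such as Mir155hg, were left out of the 500. Beyond the listing of a region, the choice used distance alone. At the edge of the rule, Mir568 lay just inside with a region at −49.8 kb (scaled reads of 121 in eWAT, 111 in iWAT, 30.4 in BAT), and a region of Mir5098 lay just outside at −50.2 kb (128, 76.7 and 83.0).

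TLE3 was profiled by chromatin immunoprecipitation and sequencing (ChIP-seq), in which DNA bound by a protein is recovered with an antibody and counted. Adipocytes were grown from the stromal-vascular fraction, the precursor-containing cells, of 3 fats, the epididymal (eWAT) and inguinal (iWAT) white depots and brown fat pooled from several sites (BAT), of male NMRI mice aged 4 to 5 weeks, each from tissue pooled over 10 to 15 mice. All cultures received insulin (30 nM), sodium ascorbate and 1 μM rosiglitazone, an activator of the fat cell receptor PPARγ. On day 8 they were fixed first for 15 min in 2 mM disuccinimidyl glutarate, a protein crosslinker, and next for 30 min in 1% formaldehyde. There was 1 TLE3 library per depot and 1 input library without antibody, from iWAT. Without replicates, depot and library cannot be told apart and no p-value is given. Cultures were kept above 50% differentiation, so other cells of the fraction could be present, and fewer cells of a type and less binding per cell cannot be told apart. RNA was not measured in these files, so neither the cell types nor the microRNAs themselves could be checked.

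A microRNA gene is transcribed as a longer RNA that is cut to a hairpin and then to mature strands of about the length of a small interfering RNA. The mature strand guides Argonaute proteins to messenger RNAs, chiefly by pairing through its seed, the short stretch near its 5′ end, and so lowers the output of those messengers. Many microRNA genes sit inside the introns of host genes and share the host's transcript, so a protein bound in a host intron can lie near both. TLE3 is a corepressor of the Groucho family, which does not bind DNA itself but is brought by other factors, and in fat cells it is known to favour the white over the brown gene program.

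The mature strands of the members that the results turn on are printed first. They come from RefSeq (GRCm38.p6), 5′ to 3′, with the seed, bases 2 to 8, in capitals. The sequence table held 457 of the 500 genes. The member with the highest summed TLE3 value was Mir21a, and Mir21c shares its seed.
miR-21a-5p: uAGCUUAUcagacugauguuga
miR-21c: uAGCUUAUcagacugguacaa

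The let-7 seed was the one carried by the most member genes, 6 of the 13 genes that have it in the table, Mir1961 among them. The member Mirlet7a-2 is not among these 6, so seed counts cover only genes with a strand in the table. Counted from 1 at the 5′ end, let-7a and let-7c differ at A19G, let-7a and let-7b at A17G and A19G, and let-7a and miR-98 at G11A and A19U, all outside the seed.
let-7a-5p: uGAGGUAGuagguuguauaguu
let-7b-5p: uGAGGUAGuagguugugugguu
let-7c-5p: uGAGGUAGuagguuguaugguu
let-7i-5p: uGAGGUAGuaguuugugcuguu
miR-98-5p: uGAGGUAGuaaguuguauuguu

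Next come seeds of which some genes are encoded beside let-7. All 3 genes with the seed of miR-99 and miR-100 were members. So were 5 of the 6 genes with the miR-125 seed, Mir125b-1, Mir125b-2, Mir351, Mir6367 and Mir6394. Of these 5, Mir125b-1 and Mir125b-2 belong to the let-7 clusters described below. miR-99a and miR-100 differ at U16A only.
miR-99a-5p: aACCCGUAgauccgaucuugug
miR-99b-5p: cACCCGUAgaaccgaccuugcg
miR-100-5p: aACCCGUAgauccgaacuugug
miR-125b-5p: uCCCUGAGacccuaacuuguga

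The strands below belong to microRNAs known from brown and beige fat, fat cell formation, insulin action and the connective tissue matrix. miR-30a and miR-30e differ at C13U, and the 3′ strands from the miR-199a and miR-199b genes are identical.
miR-455-3p: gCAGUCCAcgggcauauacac
miR-365-3p: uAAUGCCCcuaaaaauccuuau
miR-30a-5p: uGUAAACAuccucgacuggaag
miR-30e-5p: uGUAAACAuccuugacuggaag
miR-26a-5p: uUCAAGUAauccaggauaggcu
miR-32-5p: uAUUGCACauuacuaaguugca
miR-103-3p: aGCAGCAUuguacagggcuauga
miR-222-3p: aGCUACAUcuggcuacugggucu
miR-29a-3p: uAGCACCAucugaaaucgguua
miR-29b-3p: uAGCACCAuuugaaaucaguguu
miR-199a-3p: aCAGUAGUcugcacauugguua

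The last set is of members called higher or lower between libraries, some in each direction. No 2 of the 7 printed have the same seed.
miR-6408: cACAUGGGcuugcaugggaugguc
miR-488-3p: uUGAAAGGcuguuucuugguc
miR-1190: uCAGCUGAgguuccccucuguc
miR-7674-5p: uGAGGUGUgggcagcaugaggacu
miR-3076-3p: cGCACUCUggucuucccuugcag
miR-3080-5p: uGAAGCGCcuguucuuggau
miR-6350: uAGCAGGUgcauuauaaauau

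Values are scaled reads, the reads in a region multiplied by 1 factor per library, and a gene's value is the sum over its regions, so it grows with their number. The libraries differed in depth. Each read counted as 0.883 (eWAT), 0.526 (iWAT), 2.77 (BAT) or 0.651 (input) scaled reads, and the lists held 51015, 50456 and 15042 regions for the 3 depots. Where no read was counted, up to 3 reads remain possible, or 2.65 (eWAT), 1.58 (iWAT) and 8.30 (BAT) scaled reads. The fewest reads behind a listed region were 17 (eWAT), 29 (iWAT) and 6 (BAT). The regions took up 26.2% of eWAT reads, 26.3% of iWAT reads and 10.1% of BAT reads, if each library was scaled to 10 M reads. All intervals are exact 95% intervals and cover counting error only.

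MicroRNA genes carried listed TLE3 regions about as often as other genes that had a region. A region listed in eWAT was present at 441 of the 500 (88.2%, against 89.0% of all genes with a region), one listed in iWAT at 410 (82.0%, against 82.6%) and one listed in BAT at 194 (38.8%, against 41.9%). All 3 libraries listed a region at 175 microRNA genes (35.0%, against 37.4%), and both white libraries but not BAT did so at 184 (36.8%, against 36.0%). Regions listed in eWAT alone were found at 75 (15.0%, against 14.0%), in iWAT alone at 47 (9.4%, against 8.11%) and in BAT alone at 8 (1.6%, against 1.87%). These shares were near those of all genes. The BAT list is the shortest and its library the shallowest. With each list cut to its strongest 15042 regions, the length of the BAT list, the counts were 195 (eWAT), 168 (iWAT) and 194 (BAT). The shares of all genes were not computed for the cut lists. The part of read depth itself was not tested. The median member had 58.7 (eWAT), 54.4 (iWAT), 19.4 (BAT) and 2.60 (input) scaled reads, against 69.8, 64.1, 22.1 and 3.25 for the median gene. Both medians rest on 2 regions per gene. No read was counted at 52 members in BAT and at 3 in eWAT, and every member had at least 1 read in iWAT.

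The bound regions of microRNA genes lay mostly in introns. Of the 1329 regions, 758 (57.0%) were annotated as intronic and 456 (34.3%) as intergenic, against 51.3% and 40.8% of all regions within 50 kb. Another 42 were annotated as transcript ends, 40 (3.01%, against 3.69%) as promoters, 18 as 3′ untranslated regions, 10 as exons and 5 as non-coding transcripts. Where a promoter or end class rests on the microRNA's own record, as at Mir5110 and Mir133a-1, it marks the hairpin and not the primary transcript. By RefSeq, 351 of the 500 microRNA genes (70.2%) lie inside a protein-coding gene, 52 (10.4%) inside a long non-coding RNA gene and 93 (18.6%) outside both. Of the intronic regions, 671 of 758 (88.5%) lay in an intron of the microRNA's own host, a gene that spans it on either strand. Strand was not compared, so a host here need not share its transcript with the microRNA. At 251 of the 351 members inside protein-coding genes (71.5%), at least 1 region lay in the host's introns. Intronic regions alone were held by 226 members, intergenic ones alone by 145 and both kinds by 39. Position relative to the host's own start was not tested.

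Distances from the annotated start resembled those of other genes. The median distance was 15.2 kb for regions of microRNA genes and 15.5 kb for all regions, and 43.6% of the regions were upstream, against 43.8%. Within 10 kb lay 481 regions (36.2%, against 36.1%), and within 1 kb 64 (4.82%, against 5.30%). The start of a microRNA gene in these tables is the first base of the hairpin and not the start of the primary transcript.

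**Figure D1:**
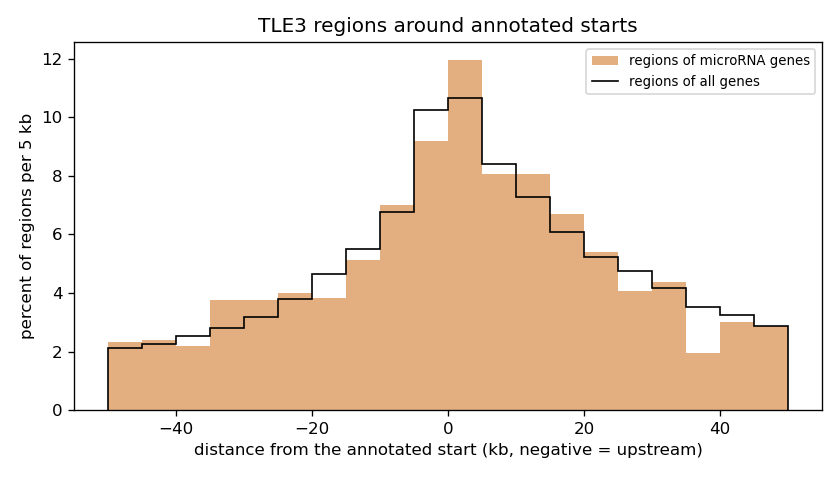
Percent of regions per 5 kb (vertical axis) by distance from the annotated start in kb (horizontal axis, negative upstream), for the 1329 regions of microRNA genes (filled) and all 39602 regions within 50 kb (black outline). Both rise toward the start, with 12.0% of microRNA regions and 10.7% of all regions in the first 5 kb downstream.

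At 8 members the centre of a region lay within 115 bp of the hairpin's first base, so that the region covered the start of the hairpin itself. Of these, 3 were chosen after their values were seen and are shown from RefSeq (GRCm38.p6) with the mature strands in capitals, because their value in BAT ran from below both white libraries to above both.
Mir2139: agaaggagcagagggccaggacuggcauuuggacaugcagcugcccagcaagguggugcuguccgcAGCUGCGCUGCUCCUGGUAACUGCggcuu
Mir7214: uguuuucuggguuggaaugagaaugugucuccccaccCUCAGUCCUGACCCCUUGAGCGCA
Mir6715: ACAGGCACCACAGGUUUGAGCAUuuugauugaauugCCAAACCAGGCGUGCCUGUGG

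The region over the Mir2139 hairpin (mm9 chr4:139523471-139523701) had 75.1 (eWAT), 55.7 (iWAT) and 27.7 (BAT) scaled reads, with 4.56 in the input. That over Mir7214 (chr17:27453977-27454207) had 35.3, 39.9 and 44.2, and was listed in all 3 libraries. That over Mir6715 (chr19:55266992-55267222) had 17.7, 32.6 and 49.8, and was listed in iWAT and BAT. The input gave 2.60 and 3.25 scaled reads at the latter pair.

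The 10 strongest genes together held 11.9% of all TLE3 reads counted at microRNA genes. Mir21a, whose product is abundant in many dividing and inflamed tissues and has been linked to fat cell formation, led with 771 (eWAT), 982 (iWAT) and 329 (BAT) scaled reads, against 33.8 in the input. Its 12 regions, of which 10 were listed in eWAT, 12 in iWAT and 5 in BAT, lay in introns of its host Vmp1, an autophagy gene (9 regions), or between genes (3). The strongest, in intron 9 of Vmp1 and 19.8 kb upstream of the hairpin (chr11:86417301-86417531), had 165, 158 and 130.0 scaled reads. The iWAT sum was the highest of the 3.

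The seed partner of Mir21a, Mir21c, was chosen after its values were seen and lies on chromosome 8. It had 257 (eWAT), 243 (iWAT) and 41.5 (BAT) scaled reads over 6 regions. Relative to the median gene its log2 ratio of BAT over eWAT was −1.10 (−1.95 to −0.35), and that of Mir21a was 0.31 (0.02 to 0.59). These intervals did not overlap, but they cover counting error only. In this comparison 36.5% of all genes had an interval wholly on 1 side of 0. Whether the genes differ was not tested.

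The next members by summed value were mostly in large host genes. Mir7661, in introns of the calcium channel gene Itpr1, had 852 (eWAT), 630.1 (iWAT) and 171 (BAT) scaled reads over 13 regions, 12, 10 and 1 of them listed. Mir6995, in the podosome adaptor gene Sh3pxd2a, had 698, 531 and 243. Mir6538, in the ubiquitin ligase gene Rnf144a, had 479, 681 and 263. In 3 of these 4 strongest members BAT was the lowest by more than 2-fold against both white libraries, and at Mir6538 it was lower by less than 2-fold than eWAT. The lower BAT values go with the lower share of BAT reads in regions, and ratios below are therefore taken relative to the median gene.

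Outside any gene, Mir6344 had 508 (eWAT), 681 (iWAT) and 230 (BAT) scaled reads, over 9 intergenic regions. Mir582 had 618, 420 and 296 over 13 intronic regions of Pde4d, a phosphodiesterase that breaks down cyclic AMP. Mir7656 had 539, 480.3 and 246 over 7 intronic regions of Slc9a9, a sodium-proton exchanger of endosomes, and its strongest region (chr9:94641387-94641617) held 271, 181 and 124. Mir684-1 had 600, 484 and 102, and its strongest region lay in an intron of Smg6, a gene of messenger decay, with 223, 93.0 and 11.1. RefSeq places Mir684-1 on another chromosome in GRCm38, so its neighbourhood in these mm9 tables is uncertain.

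Of these 10, Mir3473f and Mir7041 were called higher in BAT relative to the median gene, Mir3473f against both white libraries (1.20, 0.94 to 1.46, and 1.60, 1.34 to 1.85) and Mir7041 against eWAT (1.42, 1.10 to 1.73). With the authors' scaling their log2 ratios of BAT over eWAT were −0.33 and −0.12. Mir3473f, in the survival gene Bcl2, had 551 (eWAT), 405 (iWAT) and 437 (BAT) scaled reads, and its strongest region (chr1:108410583-108410813, intergenic) had 88.3, 88.8 and 174. Mir7041, in the growth receptor antagonist gene Lrig1, had 327, 486 and 301. Its strongest region lay in an intron of Slc25a26, a mitochondrial carrier of S-adenosylmethionine, with 30.9 in eWAT, 145 in iWAT and 185 in BAT. Mir3966, one of the members with the most regions listed in iWAT (11), had 256, 361 and 55.3 over 13 regions, none listed in BAT.

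**Figure D2:**
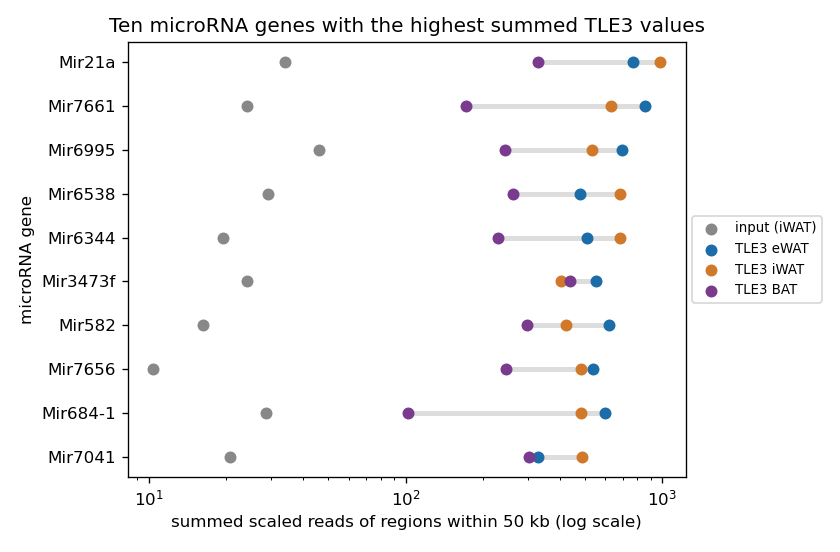
Summed scaled reads (horizontal axis, log scale) of the 10 microRNA genes with the highest sums (vertical axis), 1 point per library: input, TLE3 eWAT, TLE3 iWAT and TLE3 BAT. All TLE3 values lie above the input, and the highest are 982 for Mir21a in iWAT and 852 for Mir7661 in eWAT.

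Ratios between libraries were computed for the 327 members (65.4%, against 68.0% of all genes) whose 3 TLE3 values averaged 30 scaled reads or more. A gene is called higher or lower where its log2 ratio, less that of the median gene, was at least 2-fold and its interval lay on that side of 0. Between the white depots, 17 members were called higher in eWAT (5.20%, against 5.30% of all genes) and 25 lower (7.65%, against 9.04%). These shares were near the background. The median member had a log2 ratio of 0.00, which is that of the median gene, and the range ran from −4.38 to 4.79.

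Mir6408 was the member with the largest excess in eWAT. It passed the minimum on the mean only through its eWAT value, so its inclusion and its excess are not independent. Its single intergenic region (chr10:60355575-60355805) had 81.2 (eWAT), 2.63 (iWAT) and 8.30 (BAT) scaled reads, and 0 in the input. The eWAT library stood alone, and the log2 ratio of eWAT over iWAT was 4.79 (3.51 to 6.44). Mir488, in introns of the neuronal adhesion gene Astn1, had 131, 33.1 and 2.77, with a ratio of 1.82 (1.38 to 2.27). Mir7243, in the ephrin receptor gene Ephb1, had 67.1, 21.5 and 8.30, and Mir7212, in the endoplasmic reticulum turnover gene Retreg1, had 117, 38.4 and 38.7. Mir6907, in the ribosome assembly gene Rrp1, had 81.2, 27.3 and 0. In scaled reads, the BAT value of each of these 5 was nearer to iWAT than to eWAT. The genes were picked for high eWAT over iWAT, and BAT scaled reads were lower at most genes. That outcome was thus close to fixed and cannot show whether BAT resembles iWAT. Relative to the median gene, Mir6408 and Mir7212 were called higher in BAT than in iWAT, and the rest were not called. Against eWAT, Mir6408, Mir488 and Mir6907 were called lower in BAT.

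On the iWAT side, Mir1190 had the largest difference. Its 2 regions in introns of Ccdc88c, a regulator of Wnt signalling, had 7.07 (eWAT), 131 (iWAT) and 13.8 (BAT) scaled reads. The log2 ratio of eWAT over iWAT was −4.38 (−5.61 to −3.38), and neither region was listed in eWAT or BAT. Mir3058, in the diphosphoinositol phosphatase gene Nudt4, had 8.84, 76.2 and 8.30. Mir6481, in the mitochondrial tryptophan-tRNA ligase gene Wars2, had 43.3, 211 and 30.4 over 6 regions, all listed in iWAT and 1 in eWAT. Mir211, in the ion channel gene Trpm1, had 32.7, 135 and 30.4. In each of these 4 the iWAT library was the high one in scaled reads, for which they were picked. Mir1190 and Mir3058 passed the minimum on the mean only through their iWAT value, so their inclusion and their excess are not independent.

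Mir125b-1 is the fifth of these genes. Its product miR-125b has been reported to hold back brown fat formation. Its 2 regions, in an intron of the long non-coding host Mir100hg, had 16.8 (eWAT), 88.3 (iWAT) and 19.4 (BAT) scaled reads, and the log2 ratio of eWAT over iWAT was −2.56 (−3.33 to −1.87). Mir125b-2, which encodes the same mature strand on another chromosome, had 296, 305 and 141 over 8 intergenic regions, with a ratio of −0.21 (−0.41 to −0.01). Mir125b-1 was named for this extreme ratio, so the gap between the 2 copies is partly a matter of that choice. Whether the copies differ was not tested.

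**Figure D3:**
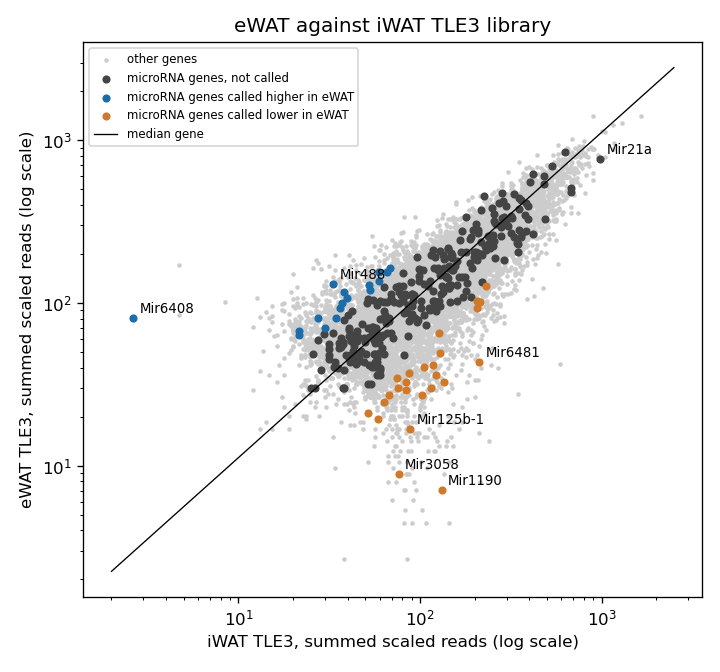
Summed scaled reads in eWAT (vertical axis) against iWAT (horizontal axis), both on log scales, for genes averaging 30 scaled reads or more. Grey points are other genes with reads in both libraries, black points microRNA genes that were not called, blue and orange points the 17 called higher and the 25 called lower in eWAT, and the line is the median gene; Mir6408 lies farthest above it and Mir1190 farthest below.

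In BAT, scaled reads were lower at most genes, with a median log2 ratio over all genes of −1.54 against eWAT and −1.49 against iWAT. Relative to that median, 36 members were called higher in BAT than in eWAT (11.0%, against 11.3% of all genes) and 39 lower (11.9%, against 12.9%). Against iWAT, 45 were called higher (13.8%, against 14.0%) and 35 lower (10.7%, against 12.0%). The shares were again near the background. Both comparisons use the same BAT library. With the authors' scaling alone, 3 members were higher and 239 lower against eWAT, and 3 and 216 against iWAT. Of all genes, 73.3% and 68.9% were called under that scaling. Relative to the regions listed in all 3 libraries, the splits were 10 to 119 and 11 to 137, where 41.2% and 42.9% of all genes were called. The calls of higher BAT values below are therefore relative to the median gene.

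The BAT counts rest on few reads where BAT was low. Of the 39 members called lower against eWAT, 16 had at most 3 BAT reads, and of the 35 called lower against iWAT, 11 did. Members called higher had a median of 21.5 BAT reads against eWAT and 22 against iWAT. The numbers overlapped: lower calls had up to 37 and 22 BAT reads, and higher calls as few as 5 and 3.

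Mir7674 gave the clearest excess in BAT, also in plain scaled reads. It had 103 (eWAT), 60.4 (iWAT) and 224 (BAT) scaled reads, and the log2 ratios relative to the median gene were 2.65 (2.23 to 3.07) against eWAT and 3.38 (2.95 to 3.80) against iWAT. Nearly all of the BAT value came from 1 region in an intron of the nuclear pore gene Nup214 (chr2:31875335-31875565), with 60.1, 18.9 and 221. This was the highest BAT value of any region of a microRNA gene. Mir7090 had 39.7, 59.4 and 96.8. Its strongest region lay in an intron of its host Ctnnb1 (chr9:120865760-120865990), which encodes β-catenin, the carrier of canonical Wnt signals, and had 3.53 (eWAT), 7.36 (iWAT) and 55.3 (BAT) scaled reads. That region was listed in BAT alone.

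Intergenic regions carried the excess at 3 other members. Mir3080, which lies in the transcription factor gene Tcf20, had 164 (eWAT), 119 (iWAT) and 260 (BAT) scaled reads over 5 intergenic regions, 4 of them listed in BAT and 1 in iWAT. Mir3105, in the synaptic scaffold gene Shank2, had 193, 121 and 207, and its strongest region held all the BAT reads. Mir3076, in the transketolase gene Tkt, had 136, 59.4 and 138 at its single region. At Mir3076 and Mir3105 the BAT and eWAT sums were close in scaled reads, and iWAT was the low library.

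Mir6394, which carries the miR-125 seed and lies in the teneurin gene Tenm4, had 30.0 (eWAT), 37.8 (iWAT) and 60.8 (BAT) scaled reads. Mir466q, in Tnik, a kinase gene of Wnt signalling, had 30.0, 116 and 58.1, so that BAT was higher than eWAT by a log2 ratio of 2.49 (1.63 to 3.31) and near the median gene against iWAT (0.49, −0.23 to 1.14). Mir6408 and Mir1190, described above, were also called higher in BAT in 1 comparison each, on 3 and 5 BAT reads. In those cases the white library compared was the low one of the pair.

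Several members had strong white signal and almost none in BAT. Mir5110, in the cell migration gene Bcas3, had 163 (eWAT), 68.3 (iWAT) and 5.53 (BAT) scaled reads. Its strongest region lay 0.301 kb upstream of the hairpin (108, 32.6 and 5.53). That region is annotated as a promoter by the hairpin's own record, not by that of a primary transcript. Mir6350, outside any gene, had 83.9, 105 and 2.77, with log2 ratios of −3.39 (−8.71 to −0.87) and −3.76 (−9.07 to −1.27). Mir6343 had 71.5, 54.1 and 2.77 at its single intergenic region. The value of 2.77 is 1 read, which is why the intervals are wide on the low side.

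Mir6904, in the DNA repair gene Parp1, had 107 (eWAT), 39.4 (iWAT) and 2.77 (BAT) scaled reads. Mir7228 had 63.1 scaled reads in iWAT and 2.77 in BAT, and Mir551b, in Egfem1, had 84.1 and 5.53. Mir488, described above, had the lowest ratio of BAT over eWAT, −4.03 (−9.34 to −1.53), also on 1 BAT read.

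**Figure D4:**
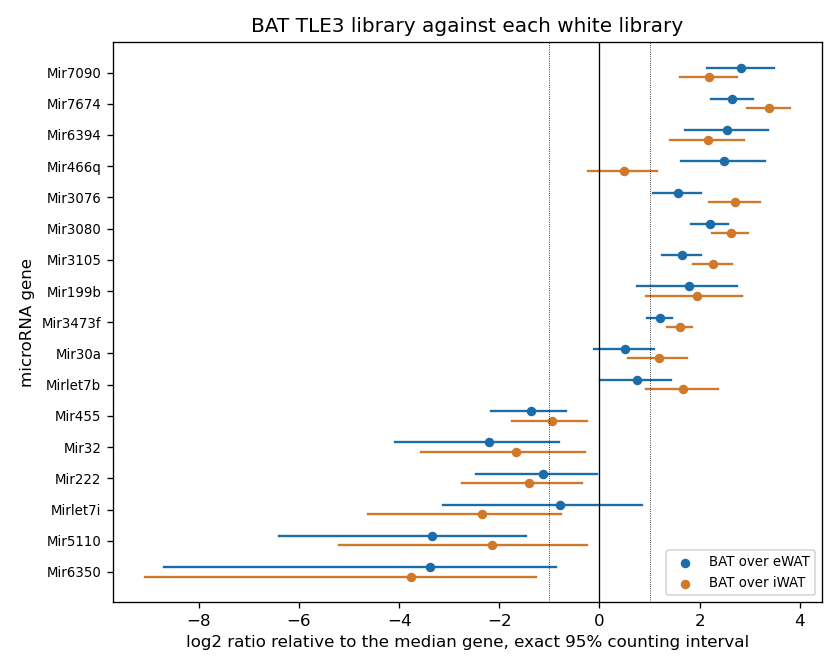
Log2 ratio of BAT over eWAT (blue) and over iWAT (orange) relative to the median gene (horizontal axis), with exact 95% counting intervals as lines, for 17 microRNA genes named in the text; dotted lines mark 2-fold. Mir7674 reaches 2.65 and 3.38, while Mir6350, with 1 BAT read, lies at −3.39 and −3.76 with wide intervals.

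MicroRNAs reported to promote brown or beige fat were the largest list. Of its 23 symbols, 13 had a region, where 499 of the 1228 microRNA genes in RefSeq (40.6%) are members. Some genes stand in the lists under more than 1 symbol, and symbols were matched as written. Mir193a, Mir378a, Mir145a and Mir126a stand there as Mir193, Mir378, Mir145 and Mir126, and so were left out of all list counts although each had a region. The shares of this and the later lists are therefore not on the same footing. Of the 13, regions were listed in eWAT for 12, in iWAT for 12 and in BAT for 4, and 11 passed the minimum. Of these 11, 4 were called lower in BAT than in eWAT and 1 higher, and 1 was lower and 1 higher against iWAT. Over all genes, 12.9% were lower and 11.3% higher against eWAT, and 12.0% and 14.0% against iWAT, and these shares stand beside the counts of every list below. The median log2 ratio of BAT over eWAT in the list was −0.84, and over iWAT −0.64, where all genes have 0. Between the white libraries 1 was called higher in eWAT and none lower, with a median of 0.41. With 11 genes and 1 library a depot these counts describe the list only.

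Mir365-2 lies beside Mir193a, and its product is known to be enriched in brown fat. It had 374 (eWAT), 217 (iWAT) and 149 (BAT) scaled reads over 6 intergenic regions, and its strongest region, at −7.12 kb (chr11:79532662-79532892), held 179, 90.9 and 66.4. Mir193a, which was chosen after its values were seen, had 165, 125 and 69.1. Neither was called in any comparison. Mir378b, in introns of the RNA-binding protein gene Msi2 and between genes, had 291, 277 and 63.6.

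Mir455 lies in introns of the collagen gene Col27a1, and its product is known to promote brown fat formation. Its 7 regions had 351 (eWAT), 255 (iWAT) and 47.0 (BAT) scaled reads, with 6, 4 and 0 of them listed. The strongest (chr4:62910110-62910340) had 133, 79.4 and 16.6. A region annotated as a promoter, 0.298 kb upstream of the hairpin, had 37.1, 9.98 and 2.77. BAT was the low library at each of these, and the log2 ratio of BAT over eWAT was −1.36 (−2.16 to −0.67), with −0.95 (−1.74 to −0.26) against iWAT, which did not reach 2-fold.

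Another 3 of this list were called lower in BAT than in eWAT, and were chosen after their values were known. Mir32, in Tmem245, has been reported to act in brown fat thermogenesis. It had 147 (eWAT), 98.8 (iWAT) and 11.1 (BAT) scaled reads at its single intronic region, with log2 ratios of −2.20 (−4.09 to −0.82) and −1.67 (−3.56 to −0.29). Mir26a-1, in the phosphatase gene Ctdspl, had 196, 115 and 24.9, and Mir203 had 64.5, 29.4 and 5.53. The list's member called higher in BAT than in eWAT, Mir129-1, had 49.5, 59.4 and 41.5.

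The miR-30 family favours fat cell formation and the beige program. Mir30a had 162 (eWAT), 99.3 (iWAT) and 80.2 (BAT) scaled reads over 4 intergenic regions, with a log2 ratio of BAT over iWAT of 1.18 (0.56 to 1.75). With the authors' scaling that ratio was −0.31. It was 0.92 at limits of 10 kb and 100 kb, and 0.355 relative to the regions listed in all 3 libraries, and was not called there. Mir30e, which carries the same seed, had a single region in the gene of the transcription factor subunit Nfyc, with 15.9, 15.8 and 2.77. Mir30b, the member of this list called higher in eWAT than in iWAT, had 121, 53.1 and 22.1. The gene of miR-378a, a metabolic microRNA encoded in the coactivator gene Ppargc1b, was not on the list under that symbol and was chosen after its values were seen: Mir378a had 145, 139 and 83.0 over 5 regions, 4 of them in introns of Ppargc1b.

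The list of microRNAs reported to hold back brown or beige fat had 15 symbols, and all 6 with a region passed the minimum. Of them 5 were listed in eWAT, 6 in iWAT and 2 in BAT. Between the white libraries 2 were called lower in eWAT, Mir125b-1 and Mirlet7i. With a limit of 100 kb the log2 ratio of Mirlet7i moved from −1.67 to −0.38 and was no longer called. Against BAT, 1 was higher than eWAT (Mir125b-1), and 1 was higher (Mir133a-1) and 1 lower (Mirlet7i) than iWAT. The median log2 ratio of eWAT over iWAT was −0.17, that of BAT was −0.01 against eWAT and −0.43 against iWAT. Mirlet7i had 41.5 (eWAT), 118 (iWAT) and 8.30 (BAT) scaled reads over 3 regions. Mir34a, whose product dampens signalling by the hormone FGF21, had 134, 89.3 and 24.9 and was not called.

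Among microRNAs reported to promote white fat cell formation, 6 of 21 symbols had a region, with 6 listed in eWAT, 6 in iWAT and 2 in BAT. Among the 4 past the minimum, 1 was called lower in eWAT than in iWAT, 1 higher in BAT than in iWAT and none in BAT against eWAT. Mir21a belongs to this list. Mir103-1 and Mir103-2 give the same mature strand, which is known to restrain insulin sensitivity, and lie in the paralogous kinase genes Pank3 and Pank2. Mir103-1 had 27.4 (eWAT), 67.8 (iWAT) and 8.30 (BAT) scaled reads, with its strongest region in a Pank3 intron and a log2 ratio of eWAT over iWAT of −1.47 (−2.09 to −0.90). Mir103-2 had 101, 72.0 and 52.5, with 0.32 (−0.05 to 0.69), and its ratio of BAT over iWAT was 1.03 (0.26 to 1.73) but −0.45 with the authors' scaling. The eWAT to iWAT intervals of the copies did not overlap, but they cover counting error only. In this comparison 58.6% of all genes had an interval wholly on 1 side of 0. Whether the copies differ was not tested. Mir143, in the long non-coding gene Carmn, had 59.2, 27.3 and 8.30 at its single region. Its neighbour Mir145a stands in the list as Mir145, was not counted, and was chosen after its values were seen. It had 62.7, 40.5 and 8.30 at a region 0.179 kb downstream.

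MicroRNAs reported to inhibit white fat cell formation had 5 of 10 symbols with a region, 4 listed in eWAT, 3 in iWAT and none in BAT. Among the 2 past the minimum, Mir222 was called lower in BAT against both white libraries. It had 123 (eWAT), 144 (iWAT) and 19.4 (BAT) scaled reads over 5 regions on the X chromosome, 4 of them intergenic, with log2 ratios of −1.13 (−2.47 to −0.05) and −1.41 (−2.74 to −0.35). With a limit of 100 kb these were −0.82 and −0.91, short of 2-fold. Mir138-1 had 61.8, 53.6 and 16.6 and was not called. Below the minimum, Mir138-2 had 15.9, 22.6 and 8.30, and Mir31 had 33.6, 8.93 and 0.

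Of the microRNAs of lipid and insulin action, 5 of 9 symbols had a region, with 3 listed in eWAT, 3 in iWAT and none in BAT. Among the 3 past the minimum, all of the miR-29 family, which represses collagen and other matrix messengers, 1 was called. Mir29b-1 had 144 (eWAT), 170 (iWAT) and 49.8 (BAT) scaled reads over 5 regions. Its neighbour Mir29a had 36.2, 60.4 and 2.77 at its single region, and was called lower in BAT than in iWAT on 1 BAT read (−2.96, −8.28 to −0.46). Mir29b-2, on another chromosome, had 65.4, 33.1 and 11.1, at a region in a non-coding exon. Mir802, below the minimum, had 26.5, 6.31 and 8.30.

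**Figure D5:**
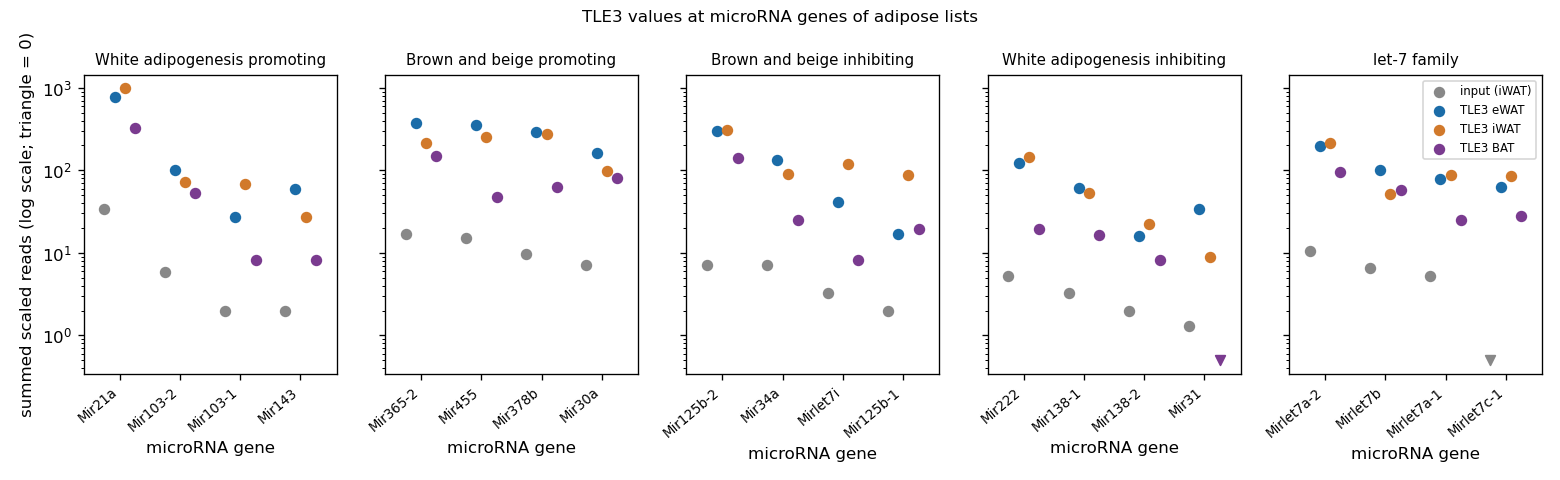
Summed scaled reads (vertical axis, log scale; triangles are 0) per library for up to 4 microRNA genes of 5 lists, 1 panel per list. Mir21a is the highest point in each TLE3 library, and Mir455, Mir222 and Mirlet7i have BAT points below 50 scaled reads beside eWAT points of 351, 123 and 41.5.

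The let-7 family restrains insulin signalling and growth, and 6 of its 16 symbols had a region, 6 listed in eWAT, 5 in iWAT and 4 in BAT. All 6 passed the minimum. One was called lower in eWAT than in iWAT, none in BAT against eWAT, and 1 higher and 1 lower in BAT against iWAT. Mirlet7a-2 had 200 (eWAT), 215 (iWAT) and 94.0 (BAT) scaled reads over 6 intronic regions of Mir100hg. Mirlet7b, whose 2 regions were intergenic, had 99.8, 51.0 and 58.1, with a log2 ratio of BAT over iWAT of 1.68 (0.92 to 2.37). Mirlet7a-1 had 77.7, 86.7 and 24.9, Mirlet7c-1 had 62.7, 86.2 and 27.7, and Mir98, in the ubiquitin ligase gene Huwe1, had 70.6, 40.5 and 19.4. Mirlet7i, called lower in eWAT and in BAT against iWAT, is given above.

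A pair of the let-7 genes belong to paralogous clusters that each join a gene of the miR-99 and miR-100 seed, a let-7 gene and a miR-125 gene. These were chosen after their values were seen. The chromosome 9 cluster, Mir100, Mirlet7a-2 and Mir125b-1, held 13 regions with 473 (eWAT), 542 (iWAT) and 199 (BAT) scaled reads. The chromosome 16 cluster, Mir99a, Mirlet7c-1 and Mir125b-2, held 18 regions with 636, 775 and 293. Both sums leaned toward iWAT, with log2 ratios of eWAT over iWAT of −0.36 (−0.51 to −0.21) and −0.45 (−0.58 to −0.32), short of 2-fold. Without Mir125b-1, which was named for its extreme ratio, the chromosome 9 genes had 457 (eWAT) and 454 (iWAT) over 11 regions. Mir99a and Mirlet7c-1 together had 340 and 469 over 10 regions.

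On chromosome 17 only Mir99b held regions. It had 159 (eWAT), 104 (iWAT) and 24.9 (BAT) scaled reads over 4 intergenic regions. Its log2 ratio of eWAT over iWAT, 0.45 (0.15 to 0.75), had the opposite sign to those of the other clusters, and that of BAT over eWAT was −1.14 (−2.29 to −0.18), against 0.29 (−0.09 to 0.64) on chromosome 9 and 0.42 (0.11 to 0.71) on chromosome 16. The strongest region of Mir99a (chr16:77579921-77580151) had 125, 94.1 and 52.5, and that of Mir100, in an intron of Mir100hg (chr9:41323355-41323585), had 103, 131 and 49.8.

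Clustered genes divide the regions between them, since each region goes to the nearest start. Of the 54 groups of microRNA genes within 10 kb of each other that had a member, 28 had a single region. Of the 26 with 2 or more, 10 had them assigned to 2 or more genes, Mir29a and Mir29b-1 among these, and 16 to 1 gene. The 239 genes in those groups included 64 members, so a low value at a clustered gene can mean that its neighbour took the region.

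Matrix and mesenchyme microRNAs had 3 of 9 symbols with a region, 3 listed in eWAT, 3 in iWAT and 2 in BAT. Among these, 1 was called higher in BAT against both white libraries and none was called between the white libraries. These genes lie within dynamin genes, with strand not compared. Mir199a-1, in Dnm2, had 154 (eWAT), 131 (iWAT) and 88.5 (BAT) scaled reads, and its strongest region, 0.382 kb upstream of the hairpin (chr9:21301275-21301505), had 95.4, 84.6 and 80.2. Mir199b, in Dnm1, had 30.0, 26.3 and 36.0, with log2 ratios of 1.80 (0.75 to 2.75) and 1.94 (0.93 to 2.84). Mir214, in Dnm3, had 38.9, 38.4 and 19.4. Only at Mir199b was BAT the highest library in scaled reads.

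The microRNAs typical of other cell types were counted the same way. Of 11 symbols for myeloid and blood cells, 4 had a region, with 4 listed in eWAT, 2 in iWAT and 1 in BAT, and neither of the 2 past the minimum was called. Mir146, the gene of miR-146a, a brake on inflammatory signalling, had 189 (eWAT), 150 (iWAT) and 80.2 (BAT) scaled reads, and Mir155 had 45.0, 44.1 and 11.1. The myeloid gene Mir142 had 44.2, 31.5 and 0, and Mir511, in the macrophage receptor gene Mrc1, had 36.2, 6.83 and 2.77. The 6 Hox cluster symbols had no region, and nor did the 1 endothelial symbol, Mir126. That gene is named Mir126a in these data, and it was chosen after its values were seen. Its region at −0.822 kb, listed in eWAT alone, had 21.2 (eWAT), 9.46 (iWAT) and 8.30 (BAT) scaled reads.

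Of 12 muscle symbols, 1 had a region. Mir133a-1 had 38.9 (eWAT), 28.4 (iWAT) and 24.9 (BAT) scaled reads, and was called higher in BAT than in iWAT (1.30, 0.09 to 2.33), with −0.19 under the authors' scaling. Of 13 neuronal symbols, 3 had a region, 2 listed in eWAT, 2 in iWAT and none in BAT, and none passed the minimum. Mir128-1 had 18.5, 25.8 and 0, Mir128-2 had 15.9, 4.20 and 2.77, and Mir9-2 had 0, 18.9 and 2.77. Of 6 epithelial symbols only Mir205 had a region. It had 102, 119 and 13.8, and was called lower in BAT against both white libraries (−1.35 and −1.62, with upper bounds of −0.09 and −0.38), with −0.58 and −0.50 at a limit of 100 kb, where it was not called. Binding near a gene does not show that it is expressed, and no cell type was called from these lists.

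Grouping by seed gave 629 seeds among the 445 members with a mature strand in the table, and 52 of these seeds were carried by 2 or more member genes. The seed of miR-148 and miR-152 was carried by 3 genes, all members, and that of miR-29 by 4, of which 3 were members. Mir148a, a promoter of fat cell formation that was chosen after its values were seen, had 27.4 (eWAT), 103 (iWAT) and 16.6 (BAT) scaled reads, and was called lower in eWAT than in iWAT (−2.07, −2.67 to −1.52). Its 3 regions were listed in iWAT alone.

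The highest eWAT value at a single region of a microRNA gene lay at Mir6397, chosen after its values were seen. This region in an intron of Scp2, a carrier of sterols and fatty acids in peroxisomes (chr4:107747113-107747343), had 290 (eWAT), 204 (iWAT) and 210.2 (BAT) scaled reads, against 1.95 in the input. Its BAT value was second to that of the Nup214 region of Mir7674. The Mir6397 sums were 431, 359 and 241.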

How the data were processed

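The 3 region tables and their input column were used. The deposited values are a signal, reads per region after the authors' scaling to a common library total, per the file headers. The submitters' processing notes name STAR, HOMER and mm9 without version or role. For peak calling, tool settings and control are not given in the sources used here. Every value was a whole multiple of 1 read's worth (100% within 0.1 read), which gave the reads behind it. Tables were joined by region, and values were summed per nearest gene within 50 kb. Ratios are log2 ratios of sums minus the median gene's, with exact Clopper-Pearson 95% intervals (Python 3.11.15, pandas 2.3.3, scipy 1.17.1) and 3 reads as the floor for 0, and the procedure was tested on simulated data. Genes with values were the 10 highest sums, up to 5 calls per comparison and direction, up to 4 members per list, and the 3 members with the most regions per library; others are marked as chosen after their values were seen. Members and lists were chosen with earlier results of these data known. Host and neighbour genes came from RefSeq (GRCm38), which matched 499 of 500 symbols, and coordinates are mm9. Alternatives were other distance limits, list sizes, scalings, minimums, fold limits, host transcripts and input subtraction.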

Additional observations from a re-analysis of the deposited data

How the results depend on the processing

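No paired analysis was possible because each depot has 1 library. With a distance limit of 10 kb, 317 members remained, with 270 listed in eWAT, 234 in iWAT and 82 in BAT. The calls fell to 17 between the white libraries, 38 in BAT against eWAT and 43 in BAT against iWAT, from 42, 75 and 80. They were made among 152 members past the minimum, where 14.2%, 26.8% and 27.9% of all genes were called. Fewer regions enter by construction. With equal-sized lists there were 291 members, 195 listed in eWAT, 168 in iWAT and 194 in BAT. The shares of all genes listed were not computed for either setting. The authors' scaling gave 242 calls in BAT against eWAT and 219 against iWAT, where 73.3% and 68.9% of all genes were called. The regions listed in all 3 depots as reference gave 129 and 148, where 41.2% and 42.9% of all genes were called. No minimum gave 115 calls among 500 members for eWAT over iWAT (24.7% of all genes). A minimum of 100 scaled reads gave 4, 21 and 28 among 132 members in the 3 comparisons (6.30%, 17.7% and 21.6% of all genes). No fold minimum gave 182, 115 and 126 among 327 members (58.6%, 36.5% and 39.8% of all genes). A limit of 100 kb, host transcripts, input subtraction and the strongest 25% of regions as reference kept these counts within 1.5 times.

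The named members had 69 calls, which counting host transcripts or dropping the fold minimum leaves unchanged by construction. Calls of members that dropped out under a setting were not counted, and 16 were left at a minimum of 100 scaled reads. Of 634 recomputed ratios of named members, 578 kept their call, 50 lost it and 6 changed sign. The 6 did so under the authors' scaling, where BAT over eWAT was −0.33 for Mir3473f, −0.12 for Mir7041 and −0.10 for Mir211, and BAT over iWAT was −0.31 for Mir30a, −0.45 for Mir103-2 and −0.19 for Mir133a-1. At 100 kb 8 calls were lost. Mirlet7i, Mir222 and Mir205 had ratios of BAT over iWAT of −0.39, −0.91 and −0.50. Over eWAT, BAT ratios were −0.82 for Mir222, −0.58 for Mir205 and −0.99 for Mir684-1. Mirlet7i also lost its call of eWAT over iWAT (−0.38), and Mir30a that of BAT over iWAT (0.92). The BAT depth, 2.77 scaled reads per read, limits every ratio with BAT, and differences between depots cannot be told apart from differences between libraries.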
